A study of Mus musculus with 48 samples.

Results

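Messenger RNA of the membrane fraction was compared with that of the cytosol in mouse embryonic stem cells after 240 min of transcription block. The comparison rests on 6 of the 48 libraries of the series, the 3 titled membrane and the 3 titled cytosol at 240 min, and these titles alone chose them. Of 23862 gene identifiers in the series, 12248 were listed in all 6 libraries and were compared. Both groups were E14TG2a cells, an embryonic stem cell line of the mouse. They were grown without feeder cells on gelatin with 2 kinase inhibitors and leukemia inhibitory factor (2i + LIF). Both groups were exposed to 1 µM flavopiridol. The cytosol was the supernatant of cells opened with digitonin, a mild detergent. The membrane fraction was the RNA that a stronger detergent, NP-40, then released from the washed pellet, leaving the nuclei behind. Each group held 3 replicates passaged independently of each other. Each value expresses a gene relative to that fraction before the drug (0 min), and 1 stands for the starting level. The titles give 240 min as the last time, whereas the protocol text gives 180 min.

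Flavopiridol blocks CDK9, without which RNA polymerase II does not leave its pause near the promoter. After its addition the RNA already made by this polymerase is followed as it is exported, moved and degraded. Transcripts of secreted, lysosomal and most membrane proteins are carried to the endoplasmic reticulum (ER) while they are being translated, because the signal recognition particle binds the hydrophobic stretch of the nascent protein. Transcripts of soluble proteins are translated mainly on free ribosomes. The membrane fraction also holds mitochondria with their own RNA. Because each fraction was scaled to its own start, a difference between the fractions states that their time courses parted, not in which fraction a transcript was more abundant. Loss by decay and transfer between fractions cannot be told apart in these values.

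Medians over the compared genes were 0.439, 0.504 and 0.511 in the membrane libraries and 0.497, 0.497 and 0.476 in the cytosol libraries, and membrane replicate 1 was the lowest of the 6. The libraries listed between 15067 and 15844 genes. Ratios hold no read depth, which is treated as unknown. Of 22 naive pluripotency genes, 20 were listed in all 6 libraries, as were 3 of 12 fibroblast genes and 4 of 10 primitive endoderm genes. A listed gene has a ratio above 0 but no level, so these counts do not identify the cells. Within a fraction, many genes had the same quotient, to 8 decimals, between libraries. Dividing membrane replicate 1 by membrane replicate 2 gave the same quotient for 1149 genes, and membrane replicate 1 at 240 min divided by that at 30 min did so for 711. Between membrane and cytosol no quotient was shared by more than 2 genes. The cytosol libraries gave the same picture. Libraries of a fraction that were compared in this way thus share 1 divisor per gene, and the error of the 0 min level is not part of the spread between replicates or of any p-value given here. Results were therefore also computed relative to the 30 min libraries of the same fraction, where that divisor cancels.

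Taken over all genes compared, the fractions stood at similar levels. The mean of the library medians was -1.05 ± 0.12 (SD, n = 3) on the log2 scale in the membrane fraction and -1.03 ± 0.04 in the cytosol, a difference smaller than the spread between replicates. Gene by gene they parted. The log2 ratio was higher in the membrane fraction for 854 of 12248 genes (6.97%) and higher in the cytosol for 578 (4.72%), in limma with a Benjamini-Hochberg adjusted p under 0.05. The genes higher in the membrane fraction had a median ratio of 0.864 there and 0.398 in the cytosol, and the mean ratio of 345 of them lay above 1 in the membrane fraction. The genes higher in the cytosol had a median ratio of 0.767 there and 0.354 in the membrane fraction, with 174 above 1 in the cytosol. A difference of at least 1 log2 unit was reached by 460 and 346 of the called genes, and also by 967 genes that were not called.

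**Figure D1:**
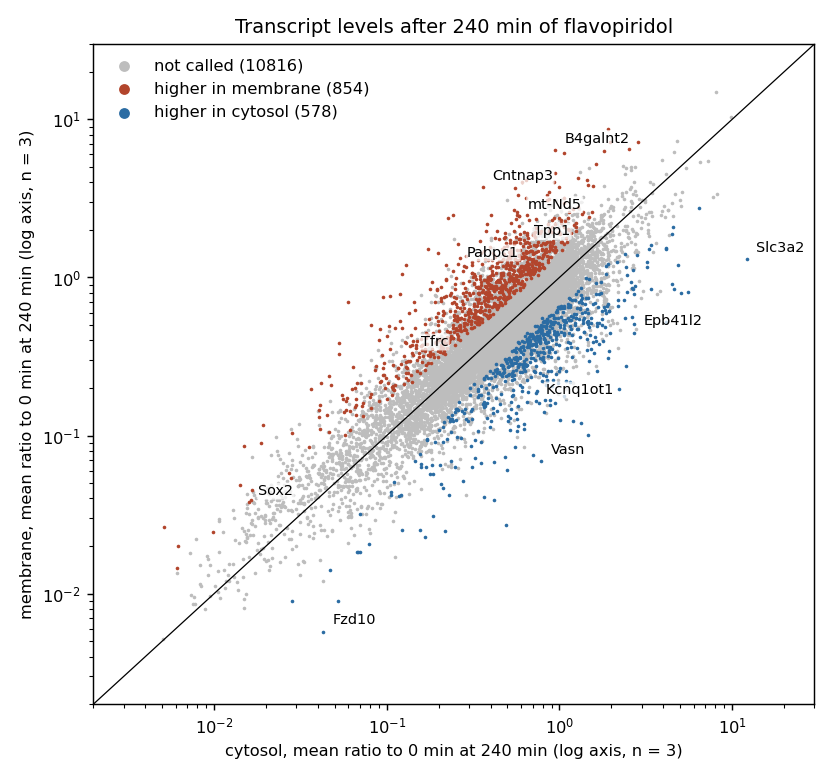
Mean ratio to 0 min at 240 min in the cytosol (x axis) and in the membrane fraction (y axis) for the 12248 genes, both axes logarithmic, n = 3 libraries each. Red points are the 854 genes called higher in the membrane fraction, blue points the 578 called higher in the cytosol, and the line marks equal ratios.

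The protocol takes the cytosol and membrane fractions of a replicate from the same cells, so libraries with the same number may share a culture, although the labels do not state this. With the replicate number as a block, limma called 0 genes higher in the membrane fraction and 0 in the cytosol (3383 in all at an unadjusted p under 0.05), so that every call given here rests on the fit without the block.

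The counts also depended on which library was left out and on the reference time. Without membrane replicate 1, 341 genes were higher in the membrane fraction and 158 in the cytosol. The counts were 99 and 105 without membrane replicate 2, and 608 and 664 without membrane replicate 3. Leaving out cytosol replicate 1, 2 or 3 gave 235, 271 and 293 genes higher in the membrane fraction and 117, 129 and 157 higher in the cytosol. Relative to 30 min, the difference between the fractions had moved towards the membrane for 339 of 11644 genes (2.91%) and towards the cytosol for 168 (1.44%). Of the 854 genes, 817 could be tested this way and 274 of them were also called. Of the 578 genes, 544 could be tested and 118 were also called. The 240 min libraries that gave the calls enter this test as well. A call relative to 30 min, here and for the genes named below, is therefore no independent support. The median log2 difference of the 854 genes, fixed at 1.05 by their choice at 240 min, was 0.27 at 30 min, 0.37 at 60 min and 0.73 at 120 min. That of the 578 genes was -0.37, -0.72 and -0.96 at these times and -1.11 at 240 min.

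The call groups differed in the proteins they encode. A hydrophobic segment, meaning a stretch long and greasy enough to cross a membrane or to act as a signal peptide, was searched in the protein of each gene with a coding sequence in the annotation. A segment was present in 49.2% of the 704 coding genes higher in the membrane fraction, in 42.4% of the 401 coding genes higher in the cytosol and in 31.8% of all 9360 coding genes compared. Both groups of called genes thus held more such genes than the whole. Among the 480 genes whose only segment lies at the N-terminus, the place of a signal peptide, 86 (17.9%) were higher in the membrane fraction and 20 (4.17%) in the cytosol. Their median log2 difference was 0.24. The 1307 genes with 2 or more segments, which include most transporters and receptors with several membrane spans, had a median of 0.17. Of these, 175 (13.4%) were higher in the membrane fraction and 88 (6.73%) in the cytosol.

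The search does not find every signal peptide, since Tpp1, Lefty2, Gdf3 and Fstl1, genes of lysosomal or secreted proteins, had no segment by it. With a segment only at the C-terminus, as in proteins inserted into membranes after translation, 23 of 255 genes (9.02%) were higher in the membrane fraction and 6 (2.35%) in the cytosol, with a median difference of 0.12. A lone inner segment went with 62 and 56 of 931 genes and a median of -0.01. Without a segment, 358 of 6387 genes (5.61%) were higher in the membrane fraction and 231 (3.62%) in the cytosol, with a median of -0.01.

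**Figure D2:**
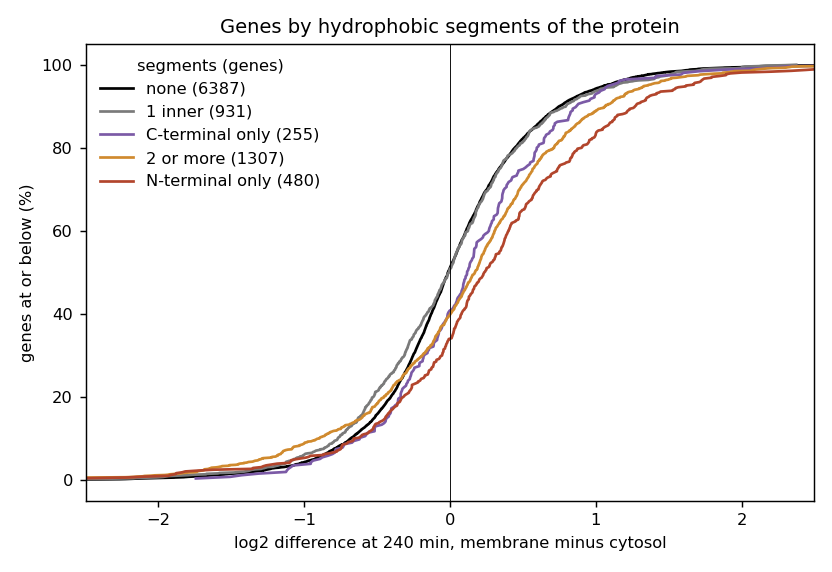
Cumulative share of genes (y axis, percent) at or below a given log2 difference between membrane and cytosol at 240 min (x axis, shown from -2.5 to 2.5), by the hydrophobic segments of the encoded protein. The curve of genes with an N-terminal segment only (median 0.24) lies furthest to the right, and those of genes without a segment and with a single inner segment run together.

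The difference between these classes was already present at 30 min, the earliest time analysed. An early change and an offset in the 0 min level that libraries of a fraction share cannot be told apart here. At 30 min the median log2 difference was 0.25 for genes with only an N-terminal segment and 0.24 for genes with 2 or more, against -0.08 for genes without one. Relative to 30 min the medians were 0.05, -0.06 and 0.05. Of the 1235 genes with 2 or more segments that could be tested this way, 41 had moved towards the membrane and 78 towards the cytosol. Over all 11644 genes tested this way the shares were 2.91% and 1.44%.

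Among the groups of nuclear genes examined, lysosomal proteins had the highest median difference. They are hydrolases and membrane proteins that pass through the ER and Golgi to the lysosome, where they break down macromolecules. Over all genes compared, the reference for this and the later groups, 6.97% were higher in the membrane fraction and 4.72% in the cytosol. For counts relative to 30 min the reference is 2.91% towards the membrane and 1.44% towards the cytosol. Of the 12248 differences, 6194 were positive and 6054 negative. Of 30 lysosomal members compared, 16 (53.3%) were higher in the membrane fraction and 1 (3.33%) in the cytosol, and 28 had a positive difference. Their library medians were 1.45, 1.43 and 1.29 in the membrane fraction and 0.706, 0.715 and 0.844 in the cytosol, so that the libraries did not overlap. The median log2 difference of the members was 0.80, against 0.01 over all genes compared. It was 0.41 at 30 min, 0.52 at 60 min and 0.75 at 120 min, and 0.43 relative to 30 min, where 5 members were called towards the membrane and 0 towards the cytosol in limma (14 and 2 at an unadjusted p under 0.05).

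Among them, Tpp1 (ENSMUSG00000030894, GRCm38 chromosome 7, 105744811 to 105752235, minus strand), which encodes a tripeptidyl peptidase, had ratios of 1.65, 1.72 and 1.62 in the membrane libraries. In the cytosol libraries it had 0.591, 0.634 and 0.666. All membrane values lay above 1 and all cytosol values below it, and the log2 difference was 1.40 ± 0.12 (SE, limma adjusted p = 0.0102). Neu1, the lysosomal sialidase, had 0.699 ± 0.044 (SD, n = 3) in the membrane fraction and 0.244 ± 0.038 in the cytosol, a difference of 1.53 ± 0.16 (limma adjusted p = 0.0108). Both were also called relative to 30 min. The other 14 called members, with differences down to 0.56, included Galc, Hexa, Gusb, Ctsf, Manba, Man2b1, Asah1, Lamp1, Npc2, Lamp2 and Scarb2, which, like further members named in the groups that follow, were chosen after their values were seen. Gla, which encodes alpha-galactosidase A, went the other way, with 0.314 ± 0.055 in the membrane fraction and 0.805 ± 0.145 in the cytosol. Its difference was -1.36 ± 0.21 (limma adjusted p = 0.0187), and it was not called relative to 30 min.

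Enzymes that build or trim glycans and GPI anchors in the ER and Golgi behaved less uniformly. Of 62 members, 17 were higher in the membrane fraction and 4 in the cytosol, with a median difference of 0.36. Man2a2, a Golgi mannosidase, had ratios of 1.56, 1.74 and 1.45 in the membrane libraries and 0.432, 0.574 and 0.489 in the cytosol libraries, a difference of 1.67 ± 0.16 (SE, limma adjusted p = 0.0103). Mgat5b and Mgat5 encode related N-acetylglucosaminyltransferases that branch glycans, and they went in opposite directions. Mgat5b had 0.764 ± 0.008 (SD, n = 3) in the membrane fraction and 0.285 ± 0.044 in the cytosol. Mgat5 (ENSMUSG00000036155, chromosome 1, 127205015 to 127488336, plus strand) had 0.419, 0.421 and 0.382 in the membrane libraries and 1.62, 1.27 and 1.43 in the cytosol libraries. Its difference was -1.82 ± 0.14 (SE, limma adjusted p = 0.0102). All 3 were also called relative to 30 min. Relative to 30 min, 5 of 56 members tested had moved towards the membrane and 7 towards the cytosol, against 2.91% and 1.44% over all genes.

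The ER machinery itself, which translocates and folds these proteins, leaned to the membrane fraction. Of 32 members, 28 had a positive difference, 6 were called higher in the membrane fraction and 0 in the cytosol in limma (14 and 1 at an unadjusted p under 0.05). Library medians were 0.640 ± 0.048 (SD, n = 3) in the membrane fraction and 0.538 ± 0.022 in the cytosol. Sdf2l1, part of an ER chaperone complex, stood at 0.242 ± 0.036 and 0.097 ± 0.025, a difference of 1.34 ± 0.25 (SE, limma adjusted p = 0.0285). Srpr, the ER receptor for the signal recognition particle, had 0.394 ± 0.023 and 0.231 ± 0.030. Rpn1, a subunit of the enzyme that adds N-linked glycans, had 0.669 ± 0.044 and 0.437 ± 0.039. Tram1, Pdia3 and Uggt1 were the remaining called members. The group's median difference was 0.48 at 30 min and 0.31 at 240 min, and relative to 30 min it was -0.18, with 0 members called towards the membrane and 1 towards the cytosol in limma (3 and 5 at an unadjusted p under 0.05).

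Proteins of the cell surface likewise had a positive median difference at 30 min, and their calls were split at 240 min. Solute carriers, which move nutrients and ions across membranes, had a median difference of 0.37 at 30 min, 0.44 at 60 min, 0.42 at 120 min and 0.31 at 240 min over 134 members. At 240 min 16 of them were higher in the membrane fraction and 9 in the cytosol. Relative to 30 min, 2 of 128 tested had moved towards the membrane and 14 towards the cytosol, against 2.91% and 1.44% over all genes. The median at 240 min was 0.12 among the members whose lowest value was at least 10 steps in both fractions or showed no step, an alternative chosen after seeing the data. A step here is the common divisor of a gene's values over the libraries of a fraction. Their library medians were 1.03 ± 0.03 (SD, n = 3) and 0.804 ± 0.044 at 30 min in membrane and cytosol, and 0.505 ± 0.040 and 0.442 ± 0.021 at 240 min. Slc3a2 (ENSMUSG00000010095, chromosome 19, 8706882 to 8723369, minus strand) encodes the heavy chain shared by several amino acid transporters. It had ratios of 10.7, 11.04 and 15.1 in the cytosol libraries and of 1.42, 1.11 and 1.38 in the membrane libraries. The difference was -3.22 ± 0.24 (SE, limma adjusted p = 0.0102), yet it was not called relative to 30 min. In total RNA its ratio was 2.10 and in the nucleus 0.391, so the high ratio was found in the cytosol libraries. Slc35g3 and Slc22a17 stood on the other side, with differences of 2.08 ± 0.47 and 1.93 ± 0.36. Neither was called relative to 30 min.

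Receptors divided in a like manner. Of 49, 8 (16.3%) were higher in the membrane fraction (Ryk, Fgfr4, Notch4, Lrp4, Tfrc, Sorl1, Ptprf and Notch3) and 3 (6.12%) in the cytosol, among them Fzd10 and Fzd5. The median of the members' differences was -0.04, although the median ratio was higher in the membrane libraries, at 0.455 ± 0.012 (SD, n = 3), than in the cytosol libraries, at 0.401 ± 0.023. Fzd10 (ENSMUSG00000081683, chromosome 5, 128600844 to 128604093, plus strand) and Fzd5 encode receptors for Wnt proteins. Fzd10 had 0.0068, 0.0060 and 0.0044 in the membrane libraries and 0.0616, 0.0439 and 0.0235 in the cytosol libraries, both far below the start. Fzd5 had 0.0575 ± 0.0070 in the membrane fraction and 0.178 ± 0.001 in the cytosol. Ryk, a further Wnt-binding receptor, had 1.16 ± 0.16 in the membrane fraction and 0.430 ± 0.097 in the cytosol, a difference of 1.45 ± 0.21 (SE, limma adjusted p = 0.0173). Fzd10 and Fzd5 were also called relative to 30 min and Ryk was not. The median difference of the receptors was 0.37 at 30 min, and at 240 min it was 0.080 among members of at least 10 steps.

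Matrix and adhesion proteins gave 11 of 66 members higher in the membrane fraction and 2, both protocadherins, in the cytosol, with a median of 0.18 (0.39 among members of at least 10 steps). Agrn, which encodes the proteoglycan agrin, had 1.64 ± 0.18 (SD, n = 3) in the membrane fraction and 0.517 ± 0.171 in the cytosol, a difference of 1.73 ± 0.29 (SE, limma adjusted p = 0.0218). Col9a2, a collagen chain, had 1.36 ± 0.30 and 0.627 ± 0.185. Col27a1, another collagen chain, had a difference of 1.99 ± 0.40 that turned to -0.29 relative to 30 min. Of 27 secreted signalling proteins 4 were higher in the membrane fraction and 1, Wnt3, in the cytosol. Lefty2, a secreted inhibitor of Nodal signalling, had 0.899, 1.15 and 0.742 in the membrane libraries and 0.234, 0.329 and 0.266 in the cytosol libraries. Its difference was 1.74 ± 0.22 (limma adjusted p = 0.0134), and it was also called relative to 30 min. Gdf3 and Fstl1 differed by 0.73 ± 0.14 and 0.72 ± 0.16, and Tdgf1, a co-receptor of Nodal, by 0.59 ± 0.12. None of these last 3 was called relative to 30 min.

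Proteins named only as transmembrane (Tmem) numbered 119, with 17 higher in the membrane fraction and 10 in the cytosol. Tmem136 had 0.328 ± 0.037 (SD, n = 3) in the membrane fraction and 0.053 ± 0.019 in the cytosol. Tmem185b had 0.0183 ± 0.0022 and 0.0671 ± 0.0133. Both were also called relative to 30 min. There, 5 of 109 members tested had moved towards the membrane and 10 towards the cytosol, against 2.91% and 1.44% over all genes. Of 21 enzymes and regulators of cholesterol synthesis, an ER pathway, Insig1 and Hsd17b7 were higher in the membrane fraction, by 0.77 ± 0.18 and 0.74 ± 0.16. Ebp, the sterol isomerase, was higher in the cytosol, with 1.01 ± 0.13 against 0.503 ± 0.056, and was also called relative to 30 min. The median difference of the pathway was -0.22. Its shares called were 9.52% and 4.76%, against 6.97% and 4.72% over all genes.

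**Figure D3:**
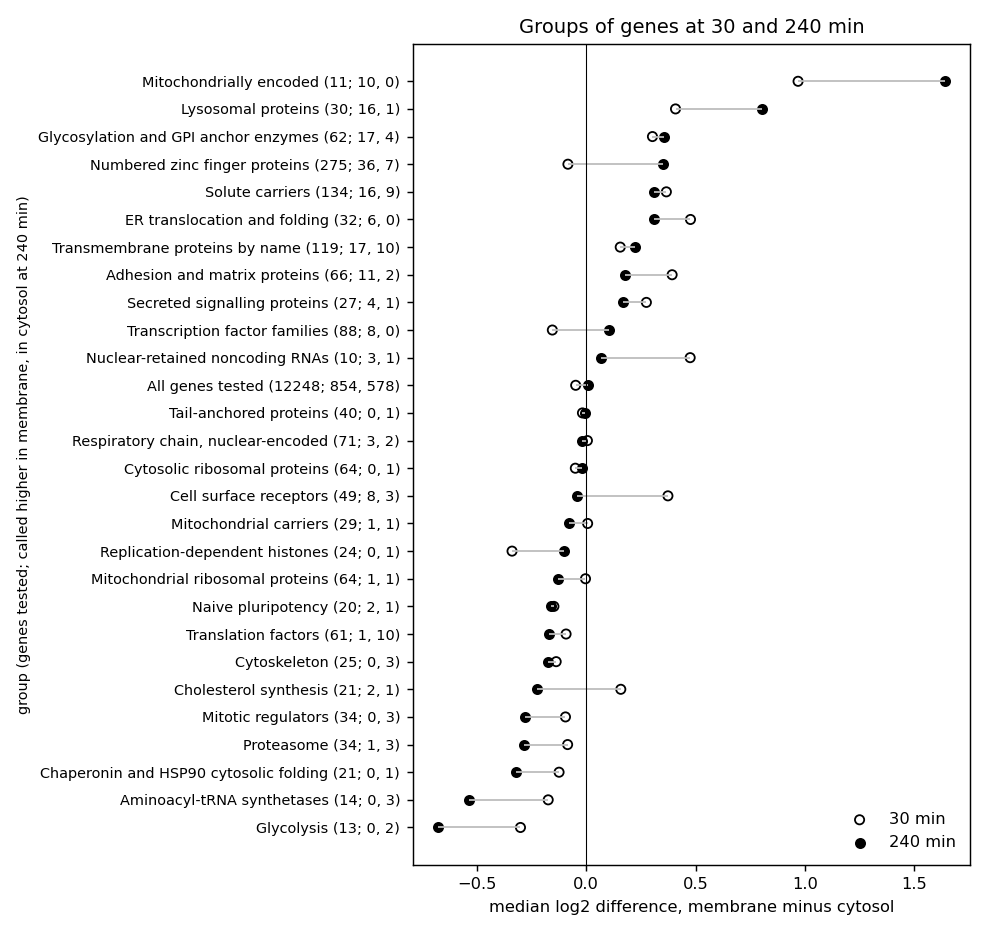
Median log2 difference between membrane and cytosol (x axis) of each group of genes at 30 min (open circles) and 240 min (filled circles). Numbers beside each group are the genes compared and those called higher in membrane and in cytosol at 240 min. Lysosomal and mitochondrially encoded transcripts lie to the right at both times, glycolytic enzymes and aminoacyl-tRNA synthetases to the left.

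Several groups of soluble proteins had negative medians. Over all genes compared, 6054 of 12248 differences were negative and 4.72% of genes were called higher in the cytosol. Of 14 aminoacyl-tRNA synthetases, the enzymes that charge tRNAs with amino acids, 13 had a negative difference and 3 were called higher in the cytosol. Library medians were 0.596, 0.792 and 0.901 in the membrane fraction and 1.19, 1.16 and 1.04 in the cytosol, so that the fractions did not overlap although the membrane libraries were widely spread. Vars, Aars and Lars differed by -1.05 ± 0.14 (SE, limma adjusted p = 0.0142), -1.02 ± 0.22 and -0.98 ± 0.21. Aars had 0.513, 0.646 and 0.895 in the membrane libraries and 1.38, 1.33 and 1.36 in the cytosol libraries. The median difference of the group was -0.17 at 30 min, -0.64 at 60 min, -0.83 at 120 min and -0.54 at 240 min, and 0 members were called in limma relative to 30 min (3 towards the cytosol at an unadjusted p under 0.05).

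Glycolytic enzymes followed the same course, with 12 of 13 differences negative, 2 members called and a median of -0.68. Pkm, the pyruvate kinase, had 0.426 ± 0.080 (SD, n = 3) in the membrane fraction and 0.767 ± 0.019 in the cytosol. Tpi1 had 0.480 ± 0.067 and 0.783 ± 0.100. In total RNA the group's median ratio was 0.728 and in the nucleus 0.735, near the 0.733 ± 0.056 of the cytosol, while the membrane fraction stood at 0.472 ± 0.088. Chaperonins and cytosolic chaperones had 17 of 21 differences negative, with only Stip1, a co-chaperone of HSP70 and HSP90, called (0.405 ± 0.110 against 0.75 ± 0.039). That is 4.76% of the group, near the 4.72% over all genes. Of 34 proteasome subunits 28 had a negative difference. Psmb9, a subunit of the immunoproteasome, and Psmb5, as well as Psmb3, were higher in the cytosol. Psma3 was higher in the membrane fraction, with 0.745 ± 0.057 against 0.438 ± 0.039. Of 25 cytoskeletal genes, Vim, Tubb2b and Tuba1a were higher in the cytosol and 0 were higher in the membrane fraction in limma (9 and 3 at an unadjusted p under 0.05). Vim, which encodes vimentin, had 0.103, 0.261 and 0.175 in the membrane libraries and 0.424, 0.624 and 0.574 in the cytosol libraries. No named member of these 4 groups was called relative to 30 min.

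Of 61 translation factors, 10 (16.4%) were higher in the cytosol, against 4.72% over all genes. Eif4e2, a cap-binding protein, and Eif4a2, an initiation helicase, led with differences of -1.48 ± 0.27 (SE, limma adjusted p = 0.0259) and -1.21 ± 0.29. Subunits of the initiation complexes eIF3 (Eif3d, Eif3m, Eif3b) and eIF2B (Eif2b3, Eif2b4), together with Eif6, Eef2 and Eif2d, made up the rest, down to -0.52. Pabpc1 (ENSMUSG00000022283, chromosome 15, 36595661 to 36609668, minus strand), which encodes the poly(A)-binding protein of the cytoplasm, was the only member higher in the membrane fraction. It had 1.05, 1.25 and 1.34 in the membrane libraries and 0.263, 0.262 and 0.251 in the cytosol libraries. Every membrane library stood at or above the starting level and every cytosol library far below it. The difference was 2.22 ± 0.14 (limma adjusted p = 0.0102), and relative to 30 min it was 1.69 and also called. In the nucleus the ratio of Pabpc1 was 1.19 and in total RNA 0.955.

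Transcripts of numbered zinc finger genes gave a pattern of late divergence. Not all regulators did: relative to 30 min the medians of naive pluripotency genes and mitotic regulators were 0.0053 and -0.16. Numbered zinc finger genes, a large family of DNA-binding proteins, had library medians of 0.765 ± 0.012 (SD, n = 3) at 30 min in the membrane fraction and 0.814 ± 0.068 in the cytosol. At 240 min the medians were 0.146 ± 0.013 and 0.113 ± 0.005, and the membrane libraries then lay above those of the cytosol. The median difference of the 275 members went from -0.08 at 30 min and -0.18 at 60 min to 0.12 at 120 min and 0.35 at 240 min. Over all genes compared the median was -0.05, -0.19, -0.11 and 0.01 at these times. At 240 min 36 (13.1%) were higher in the membrane fraction and 7 (2.55%) in the cytosol. Relative to 30 min, 33 of 274 tested had moved towards the membrane and 3 towards the cytosol, against 2.91% and 1.44% over all genes. With a pseudocount of 0.1, which weighs down such low ratios, the median was 0.16. Zfp820 had 0.428, 0.467 and 0.545 in the membrane libraries and 0.1495, 0.1521 and 0.135 in the cytosol libraries, a difference of 1.72 ± 0.16 (SE, limma adjusted p = 0.0103). Zfp11 had 0.090 ± 0.034 and 0.019 ± 0.006, and Zfp672, on the other side, 0.0465 ± 0.0185 and 0.213 ± 0.065. Zfp820 and Zfp11 were also called relative to 30 min and Zfp672 was not.

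Among other transcription factor families the median difference was 0.10, with 8 of 88 (9.09%, against 6.97% over all genes) higher in the membrane fraction and 0 higher in the cytosol in limma (18 and 4 at an unadjusted p under 0.05). Relative to 30 min, 7 of 87 tested had moved towards the membrane and 0 towards the cytosol in limma, against 2.91% and 1.44% over all genes. Foxn3, a forkhead factor, had 1.87 ± 0.14 (SD, n = 3) in the membrane fraction and 0.710 ± 0.024 in the cytosol. Klf6 and Klf3, factors of the Krüppel-like family, stood at 0.0199 ± 0.0048 and 0.0246 ± 0.0066 in the membrane fraction, against 0.0062 ± 0.0007 and 0.0099 ± 0.0010 in the cytosol. Both of these calls were lost with the pseudocount of 0.1. Sox2 (ENSMUSG00000074637, chromosome 3, 34650405 to 34652461, plus strand), a core factor of pluripotency, had 0.0370, 0.0415 and 0.0348 in the membrane libraries and 0.0149, 0.0162 and 0.0168 in the cytosol libraries. Its difference was 1.24 ± 0.23 (SE, limma adjusted p = 0.0275). The span of Sox2 overlaps that of Sox2ot on the same strand, and whether their reads were separated was not tested. Foxn3, Klf6, Klf3 and Sox2 were also called relative to 30 min. Among 20 naive pluripotency genes, Sox2 and Tdgf1 were higher in the membrane fraction and Zfp42 in the cytosol, with a median of -0.16. These are 10.0% and 5.0%, against 6.97% and 4.72% over all genes. Zfp42, named here after its values were seen and not by the naming rule, had 0.049 ± 0.019 in the membrane fraction and 0.206 ± 0.052 in the cytosol.

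Mitotic regulators leaned to the cytosol, with 24 of 34 differences negative and 3 members (8.82%) called. Over all genes compared, 6054 of 12248 differences were negative and 4.72% of genes were called higher in the cytosol. Plk1, Cdc20 and Top2a, a kinase, an activator of the anaphase-promoting complex and a topoisomerase, differed by -0.92 ± 0.19 (SE, limma adjusted p = 0.0347), -0.91 ± 0.20 and -0.95 ± 0.20. None of them was called relative to 30 min. Of 24 histone genes in polyadenylated RNA, Hist1h3c was called higher in the cytosol (1.12 ± 0.13 against 0.557 ± 0.166). That is 4.17% of the group, near the 4.72% over all genes. Hist1h3c shares near-identical sequence with other H3 genes.

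Transcripts made inside mitochondria were the group with the largest median. Of 11 mitochondrially encoded entries compared, 10 were higher in the membrane fraction and 0 in the cytosol in limma (11 and 0 at an unadjusted p under 0.05), with a median difference of 1.64. Library medians were 1.83, 1.78 and 1.67 in the membrane fraction and 0.441, 0.490 and 0.787 in the cytosol, cytosol replicate 3 being the highest of its fraction. The group stood at 0.844 in the nucleus and 1.32 in total RNA. mt-Nd5, a subunit of complex I, had 2.43, 2.53 and 2.41 in the membrane libraries and 0.400, 0.448 and 0.895 in the cytosol libraries, a difference of 2.18 ± 0.31 (SE, limma adjusted p = 0.0166). mt-Nd2 differed by 1.89 ± 0.25 and mt-Nd6 by 2.14 ± 0.28. Reads of mt-Nd6 and mt-Nd5, which overlap on opposite strands, may not be fully separated. The median difference was 0.97 at 30 min, 0.38 at 60 min and 1.67 at 120 min, and 0 members were called in limma relative to 30 min (5 towards the membrane at an unadjusted p under 0.05). Mitochondria sit in the membrane fraction, and how much mitochondrial RNA reached each cytosol library was not tested. Whether mitochondria went on making RNA under the drug was not tested either, so these ratios need not reflect persistence of RNA already made.

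Nuclear genes for mitochondrial proteins did not share this pattern. Of 71 respiratory chain genes, 3 (4.23%) were higher in the membrane fraction and 2 (2.82%) in the cytosol, with a median of -0.02. Both shares lay below the 6.97% and 4.72% over all genes. Ndufaf2, an assembly factor of complex I, had 1.10, 1.31 and 1.13 in the membrane libraries and 0.533, 0.416 and 0.464 in the cytosol libraries, a difference of 1.33 ± 0.15 (SE, limma adjusted p = 0.0110), and it was also called relative to 30 min. Ndufc1 differed by 0.69 ± 0.12 and Ndufaf3 by -0.64 ± 0.13. Among 64 mitochondrial ribosomal proteins, Mrpl33 was higher in the membrane fraction (1.17 ± 0.02 against 0.635 ± 0.059) and Mrpl14 in the cytosol (0.461 ± 0.046 against 0.747 ± 0.102). Mrpl33 was also called relative to 30 min. Of 29 mitochondrial carriers, Slc25a24 was higher in the membrane fraction by 1.11 ± 0.17 and Slc25a34 in the cytosol by a log2 difference of -1.93 ± 0.32. Shares were 3.45% each way for the carriers and 1.56% each way for the mitochondrial ribosomal proteins, also below those over all genes.

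**Figure D4:**
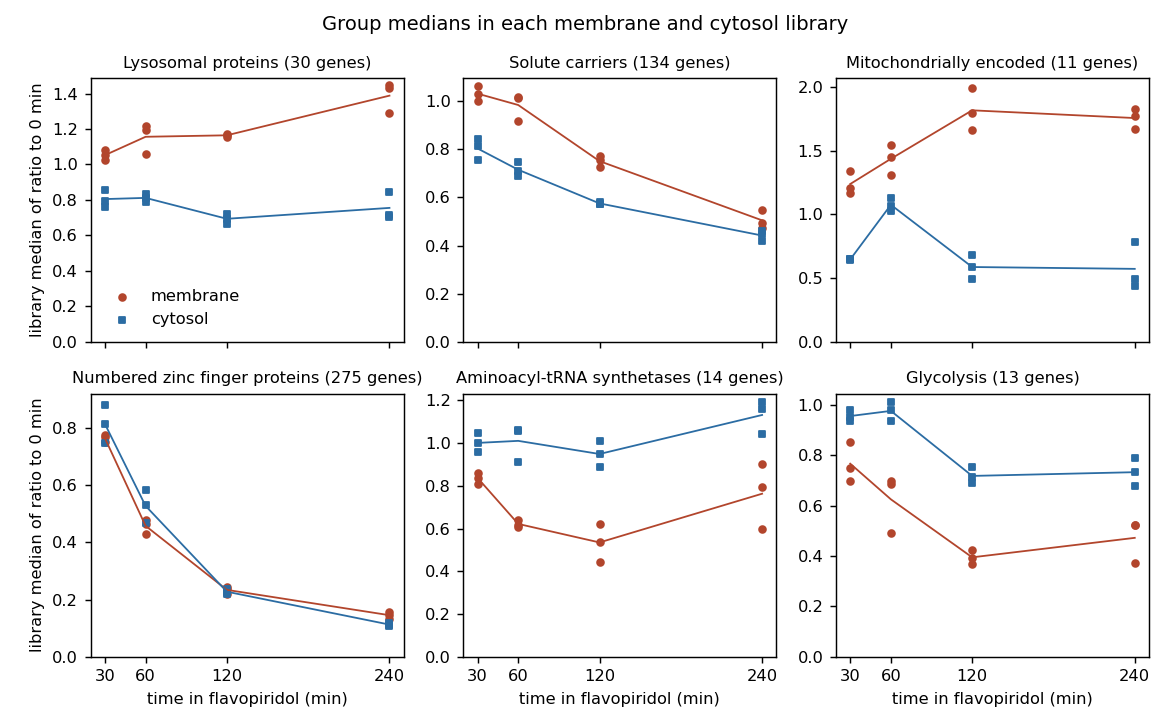
Median ratio to 0 min (y axis, linear) of 6 groups of genes in each membrane (red circles) and cytosol library (blue squares) at 30, 60, 120 and 240 min (x axis), with lines through the means of 3 libraries. Lysosomal medians are apart at every time, solute carriers approach each other, and zinc finger genes cross after 60 min.

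Cytosolic ribosomal protein genes marked the flat end. Their library medians were 0.869 ± 0.016 (SD, n = 3) in the membrane fraction and 0.885 ± 0.012 in the cytosol, and the median difference was -0.02. Rpl28 was the 1 member of 64 that was called, with 0.190 ± 0.027 in the membrane fraction and 0.336 ± 0.038 in the cytosol. Tail-anchored proteins, which are inserted into membranes after translation, gave a median of -0.0044 over 40 genes, with only Stx16, a SNARE of the Golgi, called (0.647 ± 0.097 against 1.13 ± 0.13).

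Long noncoding RNAs known to stay in the nucleus were also listed in both fractions. Firre, Rian and Snhg14 were higher in the membrane fraction, with differences of 0.66 ± 0.12 (SE) for Firre and 0.59 ± 0.12 for Rian. Kcnq1ot1 (ENSMUSG00000101609, chromosome 7, 143203458 to 143296549, minus strand), the antisense transcript that silences an imprinted domain, was higher in the cytosol. It had 0.707, 0.715 and 0.779 in the cytosol libraries and 0.139, 0.165 and 0.190 in the membrane libraries, a difference of -2.16 ± 0.16 (limma adjusted p = 0.0102). It was also called relative to 30 min. In the nucleus its ratio was 0.0998 and in total RNA 0.188, so the cytosol stood apart from the other 3. Kcnq1ot1 overlaps Kcnq1 on the other strand. The nuclear RNAs had a median difference of 0.48 at 30 min and 0.07 at 240 min over 10 genes (0.31 among those of at least 10 steps). How much nuclear RNA each fraction held was not tested.

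The largest differences fell on diverse genes. Among the 12 largest towards the membrane, Ltbp4, Megf6, Bcan, Matn1 and Emilin1 encode secreted or matrix proteins, and Cntnap3, Adcy6 and B4galnt2 encode membrane proteins. B4galnt2 (ENSMUSG00000013418, chromosome 11, 95865943 to 95914891, minus strand), a Golgi glycosyltransferase, had 6.59, 6.60 and 6.08 in the membrane libraries and 0.975, 0.872 and 0.990 in the cytosol libraries. The cytosol thus stayed near its start while the membrane ratio lay several times above it, and the difference was 2.77 ± 0.15 (SE, limma adjusted p = 0.0102). Cntnap3, a contactin-associated protein, had 3.81, 3.45 and 3.94 against 0.332, 0.526 and 0.225, with the largest difference of this rule, 3.46 ± 0.31. Ltbp4, which binds latent TGF-beta, differed by 3.32 ± 0.20, and Rnf123, a ubiquitin ligase, by 3.29 ± 0.32. On the other strand, the span of Rnf123 overlaps Amigo3, Gmppb and Mst1, among others, and that of Fbxo46 overlaps Qpctl. Whether their reads were separated was not tested. Megf6, Bcan, Matn1, Emilin1 and Adcy6 had differences of 3.31 ± 0.51, 3.24 ± 0.42, 2.93 ± 0.52, 2.88 ± 0.32 and 2.73 ± 0.56. Jazf1, a nuclear zinc finger protein, and Fbxo46, an F-box protein, differed by 2.84 ± 0.43 and 2.69 ± 0.30, and the annotation entry Mir3082, which overlaps Stub1, by 3.03 ± 0.47. Of these 12, 8 were also called relative to 30 min.

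On the cytosol side, 5 of the 12 encode membrane proteins. These are Vasn, Slc3a2, Fzd10, Tmem115 and Tmbim1. Vasn (ENSMUSG00000039646, chromosome 16, 4639941 to 4650802, plus strand), a surface protein that binds TGF-beta, had 0.035, 0.100 and 0.072 in the membrane libraries and 0.644, 0.875 and 0.841 in the cytosol libraries, a difference of -3.63 ± 0.40 (SE, limma adjusted p = 0.0110). The span of Vasn overlaps that of Dnaja3 on the same strand. Tmbim1 and Tmem115 differed by -2.51 ± 0.21 and -2.51 ± 0.28. Epb41l2, a protein of the membrane skeleton, had 2.48, 3.14 and 2.52 in the cytosol libraries and 0.376, 0.410 and 0.557 in the membrane libraries, the difference being -2.61 ± 0.20. Hnrnpk, an RNA-binding protein, and Mcm6, a subunit of the replicative helicase, both stood low. Hnrnpk had 0.031 ± 0.021 (SD, n = 3) in the membrane fraction and 0.186 ± 0.018 in the cytosol, and Mcm6 0.023 ± 0.009 and 0.166 ± 0.077. Cfap43, a ciliary protein, differed by -3.02 ± 0.37 (SE) and the antisense transcript Tmem51os1 by -3.49 ± 0.73. The entries Mir6240 and n-R5-8s1, the latter a 5.8S ribosomal RNA, differed by -3.504 ± 0.363 and -2.41 ± 0.45. In polyadenylated RNA, reads at a miRNA entry need not be mature miRNA. Of these 12, 7 were also called relative to 30 min.

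**Figure D5:**
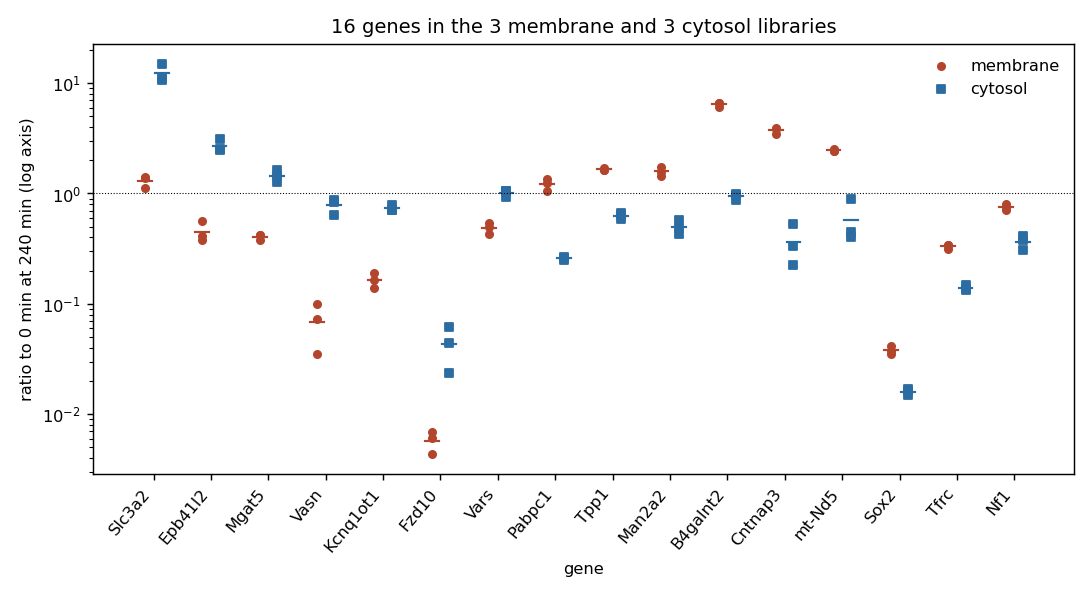
Ratio to 0 min at 240 min (y axis, logarithmic) of 16 genes in the 3 membrane (red circles) and 3 cytosol libraries (blue squares), with short lines at the means. The dotted line marks the level at 0 min. Slc3a2 exceeds 10 in each cytosol library, and Pabpc1 stays above 1 in each membrane library.

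Many of these values rest on few measured steps. After each library's own scale was divided out, the values of many genes were whole multiples of 1 step over the 12 libraries of a fraction, and the lowest of these 12 values was under 10 steps in at least 1 of the fractions for 11 of the 12 genes with the largest differences towards the membrane and for 11 of the 12 towards the cytosol. Over all times, the lowest cytosol value was 6 steps for Slc3a2, 4 for Epb41l2 and 1 for Vasn, whereas for Pabpc1, Mgat5, Man2a2 and Tpp1 no step was found up to 50 multiples in either fraction. Of the 92 named genes, 36 were under 10 steps in a fraction. Among those named from lists, the lowest cytosol value was 1 step for Slc35g3 and Col27a1 and 2 for Agrn, Zfp11 and Zfp672. It was 3 for Slc22a17, Psmb9 and Slc25a34. Among all compared genes 39.7% were under 10 steps in a fraction, as were 31.3% of the genes higher in the membrane fraction and 42.0% of those higher in the cytosol.

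Tfrc and Nf1 served as examples of different profiles in the study's labelling data, Tfrc of membrane-localized mRNAs and Nf1 of cytosol-stable transcripts. Tfrc (ENSMUSG00000022797, chromosome 16, 32608920 to 32632794, plus strand), the transferrin receptor, had 0.344, 0.339 and 0.312 in the membrane libraries and 0.137, 0.147 and 0.134 in the cytosol libraries. The difference was 1.25 ± 0.14 (SE, limma adjusted p = 0.0111), and relative to 30 min it was 0.73 ± 0.15. Nf1 (ENSMUSG00000020716, chromosome 11, 79339693 to 79581612, plus strand), which encodes the Ras regulator neurofibromin, had 0.714, 0.757 and 0.797 in the membrane libraries and 0.310, 0.375 and 0.412 in the cytosol libraries. The difference was 1.06 ± 0.15 (limma adjusted p = 0.0166), and relative to 30 min it was 1.19 ± 0.19. Both genes were called on either scale, with no overlap between the fractions. The span of Nf1 overlaps those of Evi2a, Evi2b and Omg, among others, on the other strand.

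The called groups also differed in features of the transcript that the choice of libraries did not use. The median 3′ untranslated region was 1184 bases long for the genes higher in the membrane fraction, 653 bases for those higher in the cytosol and 979 bases over all coding genes. The element ATTTA, the core of AU-rich decay elements, occurred on the sense strand of that region in 73.4%, 55.1% and 65.6% of the genes, and a longer region offers more room for it. Median GC content of the transcript was 48.3%, 52.5% and 50.4%. Protein length was alike in the called groups, with medians of 502 and 504 residues, against 452 over all.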

How the data were processed

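Polyadenylated RNA of membrane and cytosol was sequenced from E14TG2a cells after 240 min in 1 µM flavopiridol. Per the methods and labels, the authors aligned reads to mm10 with STAR 2.7.6, counted them with RSEM 1.3.3, scaled libraries on genes with half-lives over 14 h and divided by 0 min. The deposited values are therefore a ratio to 0 min of the same fraction, although the column is named a normalized read count. Genes at 0 are not listed, the 0 min libraries were not analysed here, and the strand setting of counting is not given in the sources used here. A stranded kit was used.

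Genes listed in all 6 libraries were compared on the log2 scale, without a pseudocount, with limma 3.58.1 (two-sided, with a mean-variance trend; calls at a Benjamini-Hochberg adjusted p below 0.05 over all genes) in R 4.3.3. Summaries used Python 3.11.15. On simulated data for the membrane against cytosol comparison (12248 genes, 200 changed), 68% of log2 changes of 2 or 3 were recovered and 5 unchanged genes were called. A result relative to 30 min is the same difference minus that at 30 min, in a fit of the 30 and 240 min libraries.

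Genes were named by rule from those listed in all 48 libraries, called, without overlap between fractions and without a predicted-gene name. They are the 12 largest differences each way, the 3 largest called members of each list, and Tfrc and Nf1. The members and lists were chosen with earlier results of these data known.

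Hydrophobic segments are windows of 19 residues with a Kyte-Doolittle mean of at least 1.6, in the first 35 (N-terminal) or last 50 residues (C-terminal) or elsewhere. The plan was to use RefSeq proteins, or no such result without them. The longest coding sequence per gene of GENCODE M21 (GRCm38), translated with the standard code, was used instead, a choice made after seeing the data. Coordinates are from that annotation. Alternatives covered scaling, pseudocount, filters, limma settings, the replicate block and leaving out each library. Some called members of the lists are counted but not reported here by name.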

Additional observations from a re-analysis of the deposited data

Results flagged for a closer look

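Of the 92 named genes, 38 differed between the fractions by another amount at 240 min than at 30 min, by a limma test of that change itself (adjusted p under 0.05 over 11644 genes). Apart from Tfrc and Nf1, the named genes were chosen by their 240 min values, which enter that test as well. The values below are log2 changes of the membrane minus cytosol difference from 30 to 240 min.

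Genes of membrane, secreted and lysosomal proteins moved both ways. Towards the membrane, the change was 2.90 for Cntnap3, 2.58 for Megf6, 3.23 for Bcan, 2.35 for Emilin1, 2.47 for B4galnt2, 1.91 for Agrn, 1.62 for Lefty2, 1.75 for Tmem136, 1.28 for Man2a2, 1.24 for Mgat5b, 1.10 for Tpp1, 0.99 for Neu1 and 0.73 for Tfrc. Towards the cytosol, it was -3.43 for Vasn, -3.41 for Fzd10, -2.92 for Tmbim1, -2.40 for Tmem185b, -2.15 for Tmem115, -1.91 for Fzd5, -1.90 for Mgat5 and -1.15 for Ebp.

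Among regulators and RNA-binding proteins, the change was 2.65 for Jazf1, 2.59 for Zfp11, 1.82 for Klf6, 1.69 for Pabpc1, 1.57 for Klf3, 1.32 for Zfp820, 1.31 for Sox2 and 1.18 for Foxn3, each towards the membrane. Rnf123 changed by 3.21, Fbxo46 by 1.51, Nf1 by 1.19, Ndufaf2 by 0.95 and Mrpl33 by 0.61. The noncoding RNAs Tmem51os1 and Kcnq1ot1 changed by -4.21 and -2.44 and the coding genes Mcm6 and Cfap43 by -2.30 and -2.21, towards the cytosol.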

How the results depend on the processing

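The main counts were 854 genes higher in the membrane fraction and 578 in the cytosol. They were 1964 and 1806 with all 24 membrane and cytosol libraries in 1 fit, 339 and 168 relative to the 30 min libraries, and 1197 and 907 among the 7388 genes of at least 10 steps, an alternative added after seeing the data. Leaving out 1 library gave 99 to 608 and 105 to 664. With the replicate number as a block (replicate block), limma called 0 and 0 genes (3383 at an unadjusted p under 0.05). Deviations of same-numbered libraries correlated at 0.015, 0.026 and 0.016. The other 6 pairs lay between -0.014 and -0.0019, so each library correlated best with its own number, though weakly. Whether the numbers mark shared cultures is not stated in the labels. Relative to 30 min, group medians became -0.18 for ER, 0.21 for glycosylation, 0.43 for lysosomal, -0.49 for receptor, -0.11 for adhesion, -0.17 for solute carrier, 0.059 for Tmem, 0.63 for mitochondrially encoded, -0.29 for glycolytic, 0.23 for transcription factor, 0.32 for histone, -0.33 for nuclear noncoding and 0.0053 for pluripotency genes, and -0.0095 for genes with a hydrophobic segment. Col27a1 (-0.29) and Tdgf1 (-0.016) changed sign. With at least 10 steps, medians were 0.080 for receptors, 0.39 for adhesion, 0.12 for solute carriers and 0.31 for nuclear noncoding RNAs. Adhesion was at 0.34 over genes listed in all 48 libraries, zinc fingers at 0.16 with a pseudocount of 0.1, and nuclear noncoding RNAs at -0.17 without the filter. Leaving out 1 library gave -0.15 to 0.038 for receptors, -0.047 to 0.024 for cytosolic ribosomal proteins and -0.43 to 0.051 for histones. Of the 92 named genes, 25 stayed called without each library in turn, and 20 to 64 lost the call without 1 library. The causes were not tested. Depth is unknown, and the 0 min error is not in any p-value.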

Other observations

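Genes without a coding sequence in the annotation, 2888 in all, were called higher in the membrane fraction for 150 and in the cytosol for 177, with a median log2 difference of -0.05. Tmem37, named after its values were seen, had the lowest difference of all genes compared, -4.01. Although called, it did not meet the rule by which genes were named. Wnt3, a secreted ligand, differed by -3.19 and was not listed in all libraries at 30 min.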
